A study of Mus musculus with 12 samples.

Results

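The glucocorticoid and mineralocorticoid response genes described here are 9 of the 46603 genes in the count table: the receptor genes Nr3c1 and Nr3c2, the steroid-converting enzyme genes Hsd11b1 and Hsd11b2, the hormone-induced genes Tsc22d3, Fkbp5, Zbtb16 and Sgk1, and the Sgk1 relative Sgk2. They were chosen by symbol, from a list drawn up with results of these data already known, and no threshold on a measured value was applied. Which values prompted the list is not recorded, so the levels and calls of these genes are a description of them and not independent support for any of them. RNA came from 4 groups of mice with 3 libraries each: TNFdARE ileum, WT ileum, TNFdARE ankle synovium and WT ankle synovium. TNFdARE mice carry a Tnf gene that lacks the AU-rich element, which normally limits the stability and translation of Tnf mRNA, and this mutation is known to cause inflammation of gut and joints. The WT mice were littermates. The labels give no age, sex or treatment. They call the libraries biological replicates but do not say how the animals were housed or whether ileum and synovium were taken from the same animals, so the p-values measure the spread between these libraries.

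Glucocorticoids such as corticosterone, the main one in mice, bind the glucocorticoid receptor encoded by Nr3c1. Chaperones hold the receptor in the cytoplasm until hormone binds, and the receptor then acts in the nucleus at DNA elements made of a pair of inverted short sites. The mineralocorticoid receptor encoded by Nr3c2 binds both aldosterone and corticosterone. In tissues that respond to aldosterone, the enzyme encoded by Hsd11b2 inactivates corticosterone, whereas the enzyme encoded by Hsd11b1 regenerates it. Intestinal epithelium is a site of steroid-regulated sodium transport, and glucocorticoids are known to restrain inflammation in both gut and joint.

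Tnf, the altered gene, checked the genotype labels. It reached 82.8, 17.2 and 47.4 counts per 1000000 counts of the library (CPM) in TNFdARE ileum, against 2.63, 1.39 and 1.62 CPM in WT ileum. In the synovium it reached 38.4, 32.6 and 28.3 CPM in TNFdARE, against 2.15, 2.02 and 1.89 CPM in WT, so the genotypes did not overlap in either tissue. CPM here are counts divided by library sizes scaled by TMM over all 12 libraries, whose totals lay between 14267834 and 16224402 counts. The 6 epithelial markers summed to at least 9186 CPM in every ileum library and at most 24.8 CPM in every synovium library. The 6 fibroblast markers summed to at least 38555 CPM in every synovium library and at most 1588 CPM in every ileum library. By Xist and 4 Y-linked genes, the replicates numbered 3 were female in all 4 groups and the others male.

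Promoter windows are shown for the 2 hormone-induced genes whose levels differed most between genotypes in 1 of the tissues and for which the reference gave a window with a receptor hexamer. Windows of 300 bases, 250 before and 50 from each annotated start site, came from RefSeq on GRCm38.p6. For 5 of the 9 genes (Sgk1, Tsc22d3, Fkbp5, Nr3c2 and Hsd11b1) there were 12 windows. Both strands were searched for the hexamer AGAACA, which reads TGTTCT on the other strand, and for the palindrome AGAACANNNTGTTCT, which overlaps 2 hexamers. The hexamer was in 4 of the 12 windows, 3 of the 6 of Sgk1 and 1 of the 3 of Tsc22d3, and in 19% of 32851 mouse promoter windows of the same length. The palindrome was in 1 window, at Sgk1, and in 3 of the 32851 (0.00913%). In the Sgk1 window at chr10:21993640-21993939, plus strand, with the start site at 21993890, hexamers began at -242, -189 and -180 bases from the start site. In the Tsc22d3 window at chrX:140600473-140600772, minus strand, with the start site at 140600522, the hexamer began at -185. Capitals mark the hexamers, and both sequences run 5′ to 3′ on the strand of the gene.
Sgk1: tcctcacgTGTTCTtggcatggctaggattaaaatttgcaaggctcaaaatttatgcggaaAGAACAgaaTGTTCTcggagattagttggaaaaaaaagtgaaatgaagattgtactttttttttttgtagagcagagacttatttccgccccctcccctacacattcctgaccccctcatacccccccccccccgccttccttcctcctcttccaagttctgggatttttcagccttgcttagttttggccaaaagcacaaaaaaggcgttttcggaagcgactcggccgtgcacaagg
Tsc22d3: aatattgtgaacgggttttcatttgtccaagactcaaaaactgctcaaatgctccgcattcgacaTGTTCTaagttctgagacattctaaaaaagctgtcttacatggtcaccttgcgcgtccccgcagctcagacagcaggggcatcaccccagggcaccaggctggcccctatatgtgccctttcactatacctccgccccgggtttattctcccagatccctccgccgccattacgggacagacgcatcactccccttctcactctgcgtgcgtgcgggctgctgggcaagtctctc
A match is a string of letters and was not tested as a binding site. The gene counts do not tell which of the annotated start sites was used in either tissue.

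The receptor genes were first compared between genotypes. Nr3c1 (ENSMUSG00000024431, chromosome 18, minus strand) had 164, 238 and 187 CPM in TNFdARE ileum, against 238.1, 258 and 250.1 CPM in WT ileum. The TNFdARE libraries all lay below the WT libraries, but replicate 2 of TNFdARE came within 1 CPM of the lowest WT library, and the change did not pass the test (log2 fold change -0.34 ± 0.14, standard error (SE), edgeR adjusted p = 0.154). In the synovium Nr3c1 had 179, 176 and 169 CPM in TNFdARE, against 197, 187 and 205 CPM in WT. The groups did not overlap here either, the difference was small and the test was not passed (-0.14 ± 0.07, adjusted p = 0.176). Adjusted p-values are from edgeR's two-sided quasi-likelihood test, adjusted by Benjamini-Hochberg over all genes tested in a comparison, with a threshold of 0.05. All fold changes are log2 values of TNFdARE over WT with their SE unless another comparison is named.

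Nr3c2, the mineralocorticoid receptor gene (ENSMUSG00000031618, GRCm38 chromosome 8, 76899442 to 77245012, plus strand), had 32.0, 64.2 and 38.7 CPM in TNFdARE ileum, against 79.5, 92.3 and 81.3 CPM in WT ileum. Every TNFdARE library was lower than every WT library, and replicate 2 was again the one nearest to WT. The mean was 1.87-fold lower, and the test was not passed (-0.91 ± 0.26, adjusted p = 0.0816). In the synovium Nr3c2 had 13.5, 12.8 and 8.17 CPM in TNFdARE, against 20.5, 17.9 and 18.5 CPM in WT. The synovial groups did not overlap and Nr3c2 fell there (-0.70 ± 0.19, adjusted p = 0.0352). This synovial call was lost when TNFdARE replicate 2 was left out (-0.78, adjusted p = 0.0514). It was also lost when WT replicate 1 (-0.65, adjusted p = 0.0933), 2 (-0.74, 0.0639) or 3 (-0.71, 0.0883) was left out.

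**Figure D1:**
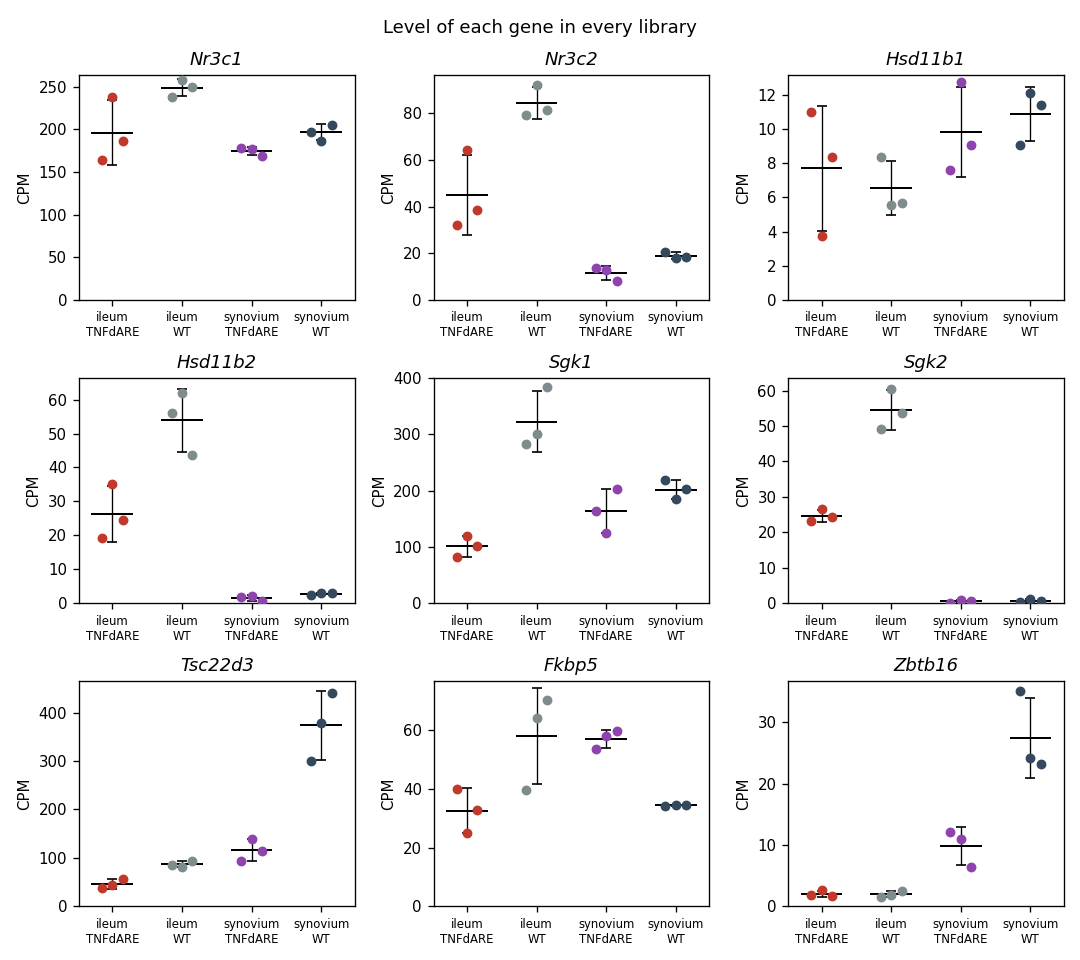
Level of each of the 9 genes in CPM (vertical axes, from 0, each with its own scale) in the 12 libraries, by tissue and genotype. Points are libraries, horizontal lines are group means and bars are ± SD of 3 libraries. Sgk1 was 3.19-fold lower in TNFdARE than in WT ileum, Tsc22d3 was lower in TNFdARE in both tissues, and Fkbp5 was higher in TNFdARE than in WT synovium.

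Neither gene of the steroid-converting enzymes passed the test in either tissue. Hsd11b1, which regenerates active corticosterone (ENSMUSG00000016194, GRCm38 chromosome 1, 193221634 to 193264075, minus strand), had 11.0, 3.73 and 8.37 CPM in TNFdARE ileum, against 8.39, 5.55 and 5.70 CPM in WT ileum. In the synovium it had 7.62, 12.7 and 9.10 CPM in TNFdARE, against 9.08, 12.1 and 11.4 CPM in WT. The genotypes overlapped in both tissues, and neither difference passed the test (0.24 ± 0.40, adjusted p = 0.716 in the ileum, and -0.12 ± 0.22, adjusted p = 0.735 in the synovium).

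Hsd11b2, which inactivates corticosterone (ENSMUSG00000031891, GRCm38 chromosome 8, 105518755 to 105523988, plus strand), had 19.1, 35.2 and 24.5 CPM in TNFdARE ileum, against 56.0, 62.1 and 43.8 CPM in WT ileum. All 3 TNFdARE libraries lay below all 3 WT libraries, with a mean 2.05-fold lower, and the test was not passed (-1.04 ± 0.24, adjusted p = 0.0558). In the synovium Hsd11b2 was low, at 1.68, 2.08 and 0.522 CPM in TNFdARE, against 2.36, 2.87 and 3.00 CPM in WT. These groups did not overlap, and the test was not passed (-0.91 ± 0.45, adjusted p = 0.180). The summed epithelial markers ordered the TNFdARE ileum libraries as Hsd11b2 did, with 9186, 11593 and 10193 CPM in TNFdARE replicates 1, 2 and 3, against 13813, 12892 and 12779 CPM in WT. Of these 6 markers 0 passed the edgeR test (3 had an unadjusted p under 0.05, and 3 passed with DESeq2), with a median of -0.35. In WT ileum the orders differed, as the epithelial sum was highest in replicate 1 and Hsd11b2 in replicate 2. A further fit, added after the data were seen, took the epithelial marker level as a covariate beside genotype. This level was the mean log2 CPM of the 6 markers and not their sum. The ileal log2 fold change was then -0.09 for Nr3c2 (adjusted p = 0.981), -0.23 for Hsd11b2 (0.952) and 0.10 for Nr3c1 (0.965). In the same fit it was -1.31 for Sgk1 (adjusted p = 0.727), -1.04 for Sgk2 (0.571), -0.73 for Tsc22d3 (0.873) and -1.74 for Fkbp5 (0.571). It was -1.04 for Hsd11b1 (adjusted p = 0.918) and 0.34 for Zbtb16 (0.965), and only 1 gene of the whole table was called there. In bulk tissue, fewer cells of a type and less RNA per cell cannot be told apart.

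Of the hormone-induced genes, Tsc22d3 differed between genotypes in both tissues. Tsc22d3 encodes GILZ, a leucine zipper protein that mediates anti-inflammatory actions of glucocorticoids (ENSMUSG00000031431, GRCm38 chromosome X, 140539528 to 140600659, minus strand). It had 37.9, 44.1 and 57.2 CPM in TNFdARE ileum, against 85.7, 81.6 and 93.4 CPM in WT ileum. No TNFdARE library reached the lowest WT library, and Tsc22d3 fell in the ileum (-0.90 ± 0.15, adjusted p = 0.0404). In the synovium it had 93.3, 138 and 115 CPM in TNFdARE, against 300.3, 379.6 and 442 CPM in WT. The 2 ranges lay far apart, and Tsc22d3 fell 3.17-fold (-1.67 ± 0.20, adjusted p = 0.00255). Tsc22d3 is X-linked, and the female WT replicate 3 was the highest WT library in both tissues. Among TNFdARE libraries the female replicate 3 was the highest in the ileum, but in the synovium it lay below the male replicate 2.

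Fkbp5, the co-chaperone that lowers the hormone affinity of the glucocorticoid receptor and is itself induced by it (ENSMUSG00000024222, GRCm38 chromosome 17, 28399094 to 28517527, minus strand), moved the other way in the synovium. It had 53.7, 57.9 and 59.6 CPM in TNFdARE synovium, against 34.3, 34.4 and 34.3 CPM in WT synovium. All TNFdARE libraries were above all WT libraries, and Fkbp5 rose 1.70-fold (0.76 ± 0.07, adjusted p = 9.54e-04). In the ileum it had 40.0, 24.8 and 32.9 CPM in TNFdARE, against 39.6, 64.2 and 70.3 CPM in WT. WT replicate 1 lay within the TNFdARE range, the groups overlapped, and the test was not passed (-0.83 ± 0.26, adjusted p = 0.100).

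Zbtb16, which encodes the zinc finger transcription factor PLZF and is a known glucocorticoid-induced gene (ENSMUSG00000066687, GRCm38 chromosome 9, 48654297 to 48836222, minus strand), was low in the ileum. It had 1.84, 2.61 and 1.62 CPM in TNFdARE ileum, against 1.53, 1.83 and 2.46 CPM in WT ileum, and the groups overlapped (0.06 ± 0.30, adjusted p = 0.905). In the synovium it had 12.1, 11.0 and 6.38 CPM in TNFdARE, against 35.0, 24.2 and 23.2 CPM in WT. These groups were separate, and Zbtb16 fell 2.74-fold (-1.46 ± 0.27, adjusted p = 0.0114). The 6 skeletal muscle markers summed to 3861, 2364 and 971 CPM in TNFdARE synovium replicates 1, 2 and 3, against 11062, 6441 and 6283 CPM in WT. Within each genotype, of 3 libraries each, Zbtb16 followed the same order of libraries as these markers. Of the 6 markers 1 fell in the synovium, and the likeness of order was not tested.

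Sgk1, a kinase gene induced by both hormones whose product promotes epithelial sodium uptake (ENSMUSG00000019970, GRCm38 chromosome 10, 21882184 to 21999903, plus strand), had 81.9, 119.8 and 101 CPM in TNFdARE ileum, against 283, 300.4 and 385 CPM in WT ileum. The groups were far apart, and Sgk1 fell 3.19-fold (-1.67 ± 0.18, adjusted p = 0.0389). In the synovium it had 164, 124 and 203 CPM in TNFdARE, against 218, 186 and 202 CPM in WT. TNFdARE replicate 3 lay within the WT range, and the test was not passed (-0.27 ± 0.17, adjusted p = 0.299). Sgk2, a related kinase gene (ENSMUSG00000017868, GRCm38 chromosome 2, 162987330 to 163014127, plus strand), had 23.1, 26.6 and 24.3 CPM in TNFdARE ileum, against 49.2, 60.5 and 53.8 CPM in WT ileum. These groups did not overlap, and Sgk2 fell 2.20-fold (-1.14 ± 0.10, adjusted p = 0.0305). In the synovium its counts were 2, 14 and 10 in TNFdARE, against 4, 19 and 8 in WT, too few to pass the filter on low counts, so it was not tested there.

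In the ileum all 9 genes passed the filter, and 0 rose, 3 fell (Sgk1, Sgk2 and Tsc22d3) and 6 did not pass the test, with a median of -0.90. Of all 15462 genes tested there, 4.12% rose and 1.57% fell, with a median of -0.00. In the synovium 8 of the 9 passed the filter, and 1 rose (Fkbp5), 3 fell (Tsc22d3, Nr3c2 and Zbtb16) and 4 did not pass the test, with a median of -0.48. Of all 15599 genes tested there, 13.1% rose and 10.7% fell, with a median of 0.00. Since the 9 genes were listed with results known, nothing is read from these shares. The 3 ileal calls ended without TNFdARE replicate 3 or without WT replicate 1, 2 or 3 (adjusted p between 0.119 and 0.174), and with limma-voom (adjusted p between 0.0524 and 0.0578). In these fits the direction was kept, and the number of called genes in the whole table was 2 without TNFdARE replicate 3 and 0 in the others, against 879. Without TNFdARE replicate 2, Nr3c1 (-0.49, adjusted p = 0.0064), Nr3c2 (-1.24, adjusted p = 5.75e-04) and Hsd11b2 (-1.29, adjusted p = 0.0028) passed as well, with 4633 called genes. Scaling by library size only shifted the median of all ileal genes to 0.11 and the share of rising genes among those called to 88.3%, against 72.5%.

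**Figure D2:**
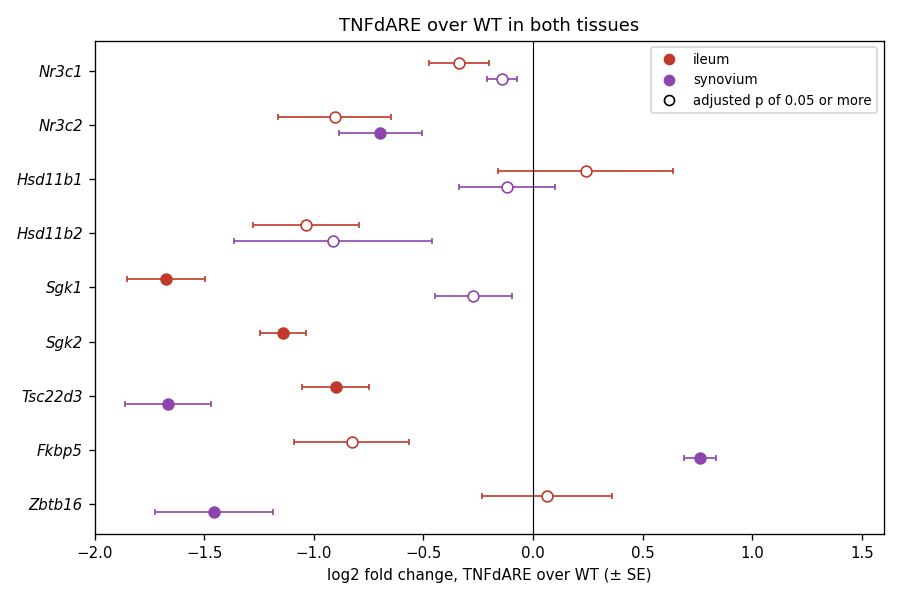
Log2 fold change of TNFdARE over WT (horizontal axis) for the 9 genes in ileum (red) and synovium (purple), with bars of ± SE from 6 libraries per tissue. Filled points had an adjusted p under 0.05, and Sgk2 was not tested in the synovium. In the ileum Fkbp5 had -0.83 and Sgk1 had -1.67, and in the synovium they had 0.76 and -0.27.

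Markers of some other cell types moved with the genotype, and others did not. In the synovium 0 of 6 neutrophil markers passed the test, and 2 of 6 fibroblast markers rose (median -0.17). In the ileum 0 of 5 smooth muscle, 0 of 4 tested B cell and 0 of 4 tested adipocyte markers passed. In TNFdARE ileum the 6 macrophage markers summed to 1150 to 5064 CPM, against 284 to 382 CPM in WT ileum, and 4 of 6 rose. The 6 neutrophil markers summed to 162 to 593 CPM in TNFdARE ileum, against 10.6 to 16.4 CPM in WT ileum, and 5 of 6 rose. The lowest of both sums among TNFdARE libraries, and the highest epithelial sum, belonged to replicate 2, in which Nr3c1, Nr3c2, Hsd11b2, Sgk1 and Sgk2 were nearest to WT. Tsc22d3 was nearest to WT in replicate 3, and Fkbp5 was farthest from WT in replicate 2. The 6 fibroblast markers summed to 1415 to 1588 CPM in TNFdARE ileum, against 868 to 999.8 CPM in WT ileum, and 4 of 6 rose. In TNFdARE synovium the 6 macrophage markers summed to 4847 to 6604 CPM, against 1613 to 2017 CPM in WT synovium, and 6 of 6 rose. The 5 adipocyte markers summed to 225 to 348 CPM in TNFdARE synovium, against 583 to 782 CPM in WT synovium, and 5 of 5 fell. Endothelial markers summed to 483 to 589 CPM in TNFdARE synovium, against 634 to 665 CPM in WT synovium, and 3 of 5 fell. Smooth muscle markers summed to 564 to 745 CPM in TNFdARE synovium, against 1091 to 1585 CPM in WT synovium, and 2 of 5 fell. Cartilage markers summed to 1519 to 1832 CPM in TNFdARE synovium, against 2560 to 3476 CPM in WT synovium, and 1 of 5 fell. Skeletal muscle markers had a median of -1.73 in the synovium, and 1 of 6 fell. The muscle marker level, as the mean log2 CPM of the 6 markers, was added as a covariate after the data were seen. With this covariate 292 genes of all tested were called in the synovium, against 3713 without it. The log2 fold change was then -2.02 for Tsc22d3 (adjusted p = 0.0514), 0.63 for Fkbp5 (0.0780), -0.05 for Nr3c2 (0.948) and -0.47 for Zbtb16 (0.370). All 4 synovial calls ended. With the adipocyte level as covariate, added in the same way, they were -0.95 for Tsc22d3 (adjusted p = 0.844), 0.73 for Fkbp5 (0.555), 0.0030 for Nr3c2 (1.00) and -0.90 for Zbtb16 (0.924), while 2 genes of all tested were called. Marker levels and genotype were nearly aligned across the 6 libraries of a tissue, and their parts in these results cannot be told apart.

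Whether the TNFdARE effect differed between tissues was tested as an interaction over all 12 libraries, as the synovial minus the ileal log2 fold change. The difference was 1.56 ± 0.29 for Fkbp5 (adjusted p = 0.00891), 1.38 ± 0.27 for Sgk1 (adjusted p = 0.0116) and -1.54 ± 0.42 for Zbtb16 (adjusted p = 0.0390), so 2 of the 9 genes were called upward and 1 downward. Of all 16964 genes tested 5.28% were called upward and 6.80% downward, with a median of -0.08. The upward share of the called genes was 43.7%, and it was 52.4% with RLE size factors and 31.2% with library size only. The call of Zbtb16 held without synovium TNFdARE replicate 1 but not without any of the other 11 libraries in turn (adjusted p between 0.0517 and 0.102). For Tsc22d3 the difference was -0.79 ± 0.26 (adjusted p = 0.0741), for Nr3c2 0.18 ± 0.35 (0.780), for Nr3c1 0.17 ± 0.16 (0.518), for Hsd11b2 0.10 ± 0.53 (0.941) and for Hsd11b1 -0.38 ± 0.49 (0.653). Without ileum TNFdARE replicate 2 the difference for Nr3c1 passed (0.43, adjusted p = 0.0233). For these 5 genes the test on all libraries gave no difference between tissues past the threshold, which does not show that the effects were alike. Sgk2 had too few synovial counts for its difference to be read.

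The 2 tissues were then compared within each genotype. In WT mice, ileum over synovium, 6 genes were higher in the ileum and 2 lower, where 36.0% of 16964 genes were higher and 38.2% lower. Among the 6 was Sgk2 (6.30), which passed the filter of this fit only through its ileal counts and so had to differ. The ileal excess was 4.29 ± 0.36 for Hsd11b2 and 2.15 ± 0.25 for Nr3c2, and smaller for Fkbp5 (0.76 ± 0.20), Sgk1 (0.68 ± 0.19) and Nr3c1 (0.34 ± 0.11, adjusted p = 0.0185). The call of Nr3c1 ended without WT ileum replicate 2 (0.33, adjusted p = 0.0634), without WT synovium replicate 1 or 2 (0.36 and 0.30, adjusted p = 0.0515 and 0.0624) and with library size only. Lower in WT ileum were Zbtb16 (-3.82 ± 0.31) and Tsc22d3 (-2.10 ± 0.19), and Hsd11b1 did not pass (-0.73 ± 0.35, adjusted p = 0.0764). In TNFdARE mice 3 of the 9 genes were higher in the ileum and 4 lower, where 35.0% of all genes were higher and 31.6% lower. Sgk2 (5.58, with the same limit), Hsd11b2 (4.19 ± 0.38) and Nr3c2 (1.97 ± 0.25) were higher, and Zbtb16 (-2.28 ± 0.30), Tsc22d3 (-1.32 ± 0.19), Fkbp5 (-0.81 ± 0.20) and Sgk1 (-0.70 ± 0.19) were lower. Sgk1 and Fkbp5 were thus higher in ileum than in synovium among WT libraries and lower in ileum than in synovium among TNFdARE libraries, with no overlap between tissues in either genotype. These comparisons share libraries with the ones before and are not independent of them.

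Per kilobase of exon, which allows genes to be compared, Sgk1 was highest in WT ileum at 65.8 ± 11.2 CPM per kilobase (SD, n = 3) and Tsc22d3 was highest in WT synovium at 86.1 ± 16.3. In TNFdARE ileum the order was Nr3c1 at 25.5 ± 4.91, Sgk1 at 20.6 ± 3.87, Hsd11b2 at 14.3 ± 4.44 and Tsc22d3 at 10.7 ± 2.27 CPM per kilobase, and each of the first 3 overlapped the next. In WT ileum Sgk1 stood above Nr3c1 at 32.4 ± 1.31, which overlapped Hsd11b2 at 29.3 ± 5.06 CPM per kilobase. In TNFdARE synovium Sgk1 at 33.4 ± 8.04, Tsc22d3 at 26.6 ± 5.17 and Nr3c1 at 22.7 ± 0.649 CPM per kilobase were the highest, with overlap from the first to the third in turn. In WT synovium Tsc22d3, Sgk1 at 41.2 ± 3.31 and Nr3c1 at 25.6 ± 1.22 CPM per kilobase did not overlap. The lowest of the 9 was Zbtb16 in both ileal groups, at 0.383 ± 0.0982 in TNFdARE and 0.367 ± 0.0907 CPM per kilobase in WT, and Sgk2 in both synovial groups, at 0.147 ± 0.103 in TNFdARE and 0.199 ± 0.146 CPM per kilobase in WT. Nr3c1 exceeded Nr3c2 in all 4 groups, and Hsd11b2 exceeded Hsd11b1 in ileum while Hsd11b1 exceeded Hsd11b2 in synovium.

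**Figure D3:**
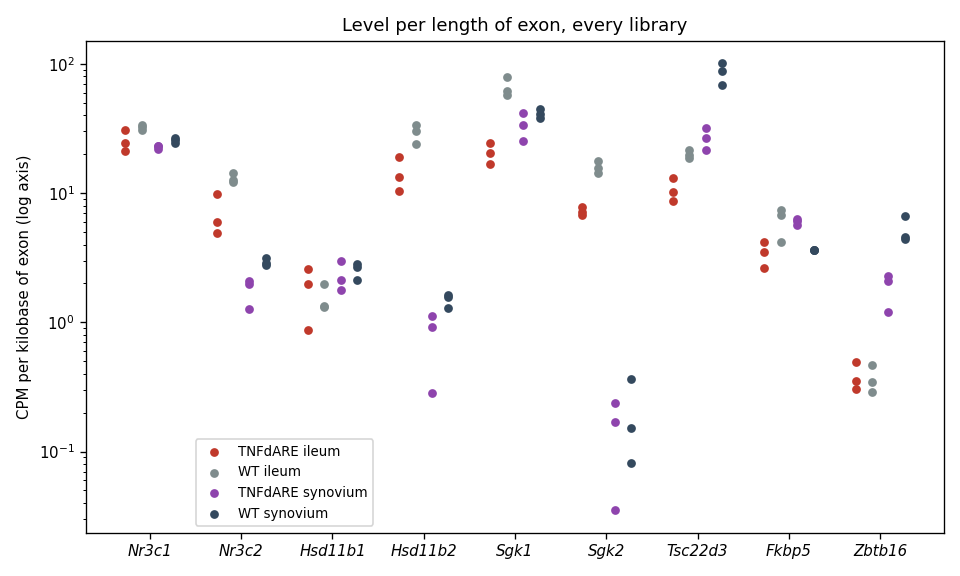
Level per length of exon, in CPM per kilobase on a log axis, of the 9 genes in all 12 libraries, with 1 point per library and the groups in the order TNFdARE ileum, WT ileum, TNFdARE synovium and WT synovium. Sgk2 and Hsd11b2 were far lower in the synovial than in the ileal libraries, and Zbtb16 was higher in the synovial ones.

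Other genes of the pathway were described from lists that were drawn up, like the 9 genes, with earlier results of these data known. The counts of these lists are therefore a description and not independent support. Of 24 genes that glucocorticoids are known to induce, 3 rose and 8 fell in TNFdARE synovium and 13 did not pass the test, where 13.1% of all genes rose and 10.7% fell. The median was -0.20 against 0.00 over all genes tested. Klf9 (-1.10 ± 0.12) and Klf15 (-1.85 ± 0.21), both transcription factors, fell together with Ddit4, an inhibitor of mTOR signalling (-1.73 ± 0.18), and Errfi1, an inhibitor of EGF receptor signalling (-1.25 ± 0.17). The genes that rose were Anxa1 (0.72 ± 0.13), which encodes annexin A1, and, chosen after their values were seen, Nfkbia (0.71 ± 0.12) and Mt2 (0.73 ± 0.18). With replicate number as a block 5 of the 24 rose and 8 fell. With the muscle or adipocyte level as covariate 0 rose, and 2 or 0 fell, with 292 or 2 genes called in all, against 3713. In TNFdARE ileum 2 of the 24 rose and 1 fell, where 4.12% of all genes rose and 1.57% fell. The median was -0.38 against -0.00 over all genes tested. Angptl4, an inhibitor of lipoprotein lipase, fell to 8.42 ± 2.39 CPM in TNFdARE ileum, against 30.7 ± 6.46 CPM in WT ileum (-1.86 ± 0.24). Il1r2, the decoy receptor of interleukin-1, rose to 18.3 ± 8.94 CPM in TNFdARE ileum, against 1.61 ± 0.993 CPM in WT ileum (3.49 ± 0.63), and Anxa1 rose by 0.84 ± 0.18. Il1r2 is also expressed by neutrophils, whose markers rose in these libraries. Neutrophil markers summed to 162 to 593 CPM in TNFdARE ileum and to 1408 to 4037 CPM in TNFdARE synovium, where Il1r2 had 8.24 ± 2.02 CPM. Whether these cells account for the Il1r2 level was not tested. The ileal counts of rising and falling list genes were 0 and 0 without TNFdARE replicate 1 or 3 or without any WT library. They were 8 and 6 without TNFdARE replicate 2.

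The same shares of all genes, 4.12% rising and 1.57% falling in the ileum and 13.1% rising and 10.7% falling in the synovium, stand beside the counts of the other lists. Among 19 chaperones and coregulators of the receptors, 0 rose and 1 fell in TNFdARE ileum (median -0.05). It was Fkbp4, the co-chaperone that favours receptor transport to the nucleus, with 187 ± 16.5 CPM in TNFdARE ileum, against 274 ± 17.0 CPM in WT ileum (-0.55 ± 0.09). In TNFdARE synovium 2 rose and 0 fell (median 0.04): Stip1, which links Hsp70 and Hsp90 (0.32 ± 0.09), and Ptges3, the Hsp90 co-chaperone p23 (0.47 ± 0.13). Of 24 listed genes of local corticosteroid synthesis and metabolism 15 were tested in the ileum, where 0 rose and 1 fell (median -0.10). Cyp3a13, a steroid hydroxylase, fell there to 104 ± 30.9 CPM in TNFdARE, against 245 ± 24.1 CPM in WT (-1.22 ± 0.22). In the synovium 13 were tested, 1 rose and 4 fell (median -0.05). H6pd, which supplies NADPH to the Hsd11b1 enzyme, rose slightly (0.24 ± 0.07). Por, which supplies electrons to cytochromes P450 (-0.51 ± 0.09), Fdx1, which does so in mitochondria (-0.62 ± 0.16), and Cyp3a13, at 0.913 ± 0.284 CPM in TNFdARE and 3.03 ± 1.18 CPM in WT synovium (-1.69 ± 0.39), fell.

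Of 22 listed genes of aldosterone-sensitive sodium transport 20 were tested in the ileum, and 0 rose and 3 fell (median -0.18), where 4.12% of all genes rose and 1.57% fell. Atp1b1, a subunit of the sodium pump, fell to 629.5 ± 154 CPM in TNFdARE ileum, against 1199.9 ± 104 CPM in WT ileum (-0.93 ± 0.19). Usp2, a deubiquitinase gene induced by aldosterone, fell in both tissues, by 1.34 ± 0.18 in ileum and 1.46 ± 0.21 in synovium. In the synovium 17 of the list were tested, 1 rose and 6 fell (median -0.30), where 13.1% of all genes rose and 10.7% fell. Kcnn4, a calcium-activated potassium channel that lymphocytes and macrophages also express, rose there to 52.0 ± 8.32 CPM in TNFdARE, against 16.3 ± 1.93 CPM in WT (1.70 ± 0.14). The macrophage markers rose too. Of 6 T cell markers 1 rose and 2 fell in the synovium (median -0.77), with sums of 41.4 to 51.5 CPM in TNFdARE and 38.4 to 41.2 CPM in WT. Of 5 B cell markers 0 rose and 0 fell (median -0.94). Whether any of these cells account for the Kcnn4 level was not tested. Wnk4, a kinase that regulates sodium chloride transport (-1.74 ± 0.28), and Kcnk5, a potassium channel (-1.43 ± 0.27), fell in the synovium. The ileal count of 3 falling genes became 0 without TNFdARE replicate 3 or any WT library and 7 without TNFdARE replicate 2. The synovial count of 6 became 0 with the muscle or adipocyte covariate, with 292 or 2 genes called in all, against 3713.

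**Figure D4:**
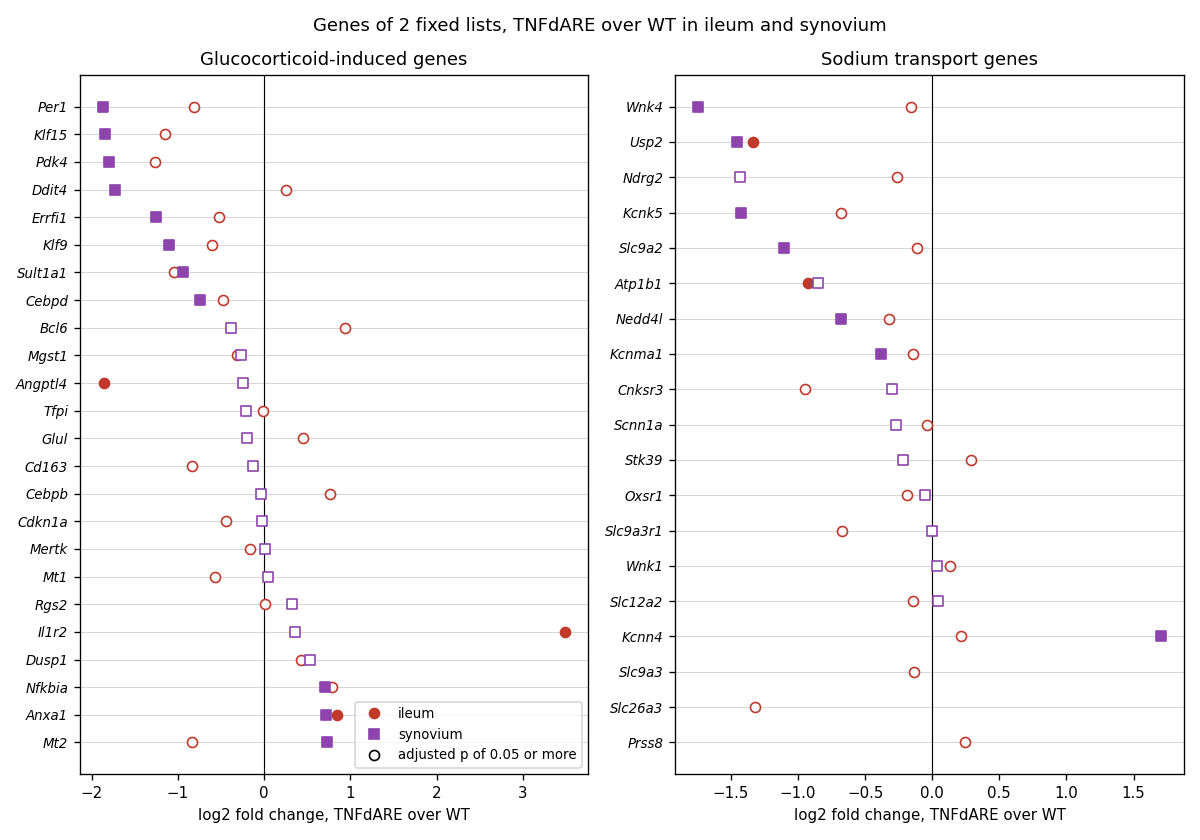
Log2 fold change of TNFdARE over WT for tested genes of the glucocorticoid-induced list (left) and the sodium transport list (right, with 1 gene not shown), with circles for ileum and squares for synovium. Filled symbols had an adjusted p under 0.05. Of the glucocorticoid-induced genes 3 rose and 8 fell in the synovium, and 2 rose and 1 fell in the ileum. Of all genes tested 13.1% rose and 10.7% fell in the synovium, and 4.12% rose and 1.57% fell in the ileum. Il1r2 had the highest value of the glucocorticoid-induced list, 3.49, in the ileum.

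Among 17 kinases, activators and substrates of the SGK pathway, 0 passed the edgeR test in the ileum (median 0.02, 6 with an unadjusted p under 0.05, 3 passing with DESeq2), where Akt1, the most abundant of them, had 0.19 ± 0.10 (adjusted p = 0.262). In the synovium 2 rose and 4 fell (median -0.04), where 13.1% of all genes rose and 10.7% fell, and 1 rose and 4 fell with replicate number as a block. Sgk3, the third kinase of the family, rose (0.42 ± 0.09), and Foxo1 and Foxo4, transcription factors that SGK and AKT kinases inactivate, fell by 0.59 ± 0.08 and 0.33 ± 0.07, as did Prr5, a subunit of mTOR complex 2, by 0.65 ± 0.18. Of 15 relatives of Fkbp5 and Tsc22d3, 0 rose and 1 fell in the ileum (median -0.08), which was Fkbp4, and 2 rose and 2 fell in the synovium (median -0.06). Fkbp15 (0.37 ± 0.07) and Fkbp1b (0.73 ± 0.16) rose, and Fkbp3 (-0.56 ± 0.15) and Tsc22d1 (-0.42 ± 0.10) fell. Of the synovial genes named from the lists, Stip1, Ptges3, Cyp3a13, Fdx1, H6pd, Foxo4, Sgk3, Prr5, Fkbp1b, Tsc22d1 and Fkbp3 each lost the call without at least 1 of the 6 libraries, as every ileal list gene named as changed did without TNFdARE replicate 3 or any WT library.

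Genes with the most similar pattern were found by the root mean square difference of centred log2 CPM over the 12 libraries, among 13538 genes. The nearest to Tsc22d3 were Csdc2 (0.253), Errfi1 (0.310) and Per1 (0.313), of which Errfi1 and Per1 are also in the list of glucocorticoid-induced genes. The nearest to Sgk1 were Thpo (0.339), Cnksr3 (0.361) and Cfap74 (0.361), and Cnksr3 is in the sodium transport list. Fkbp5 had Hspa5 (0.289), Slc41a2 (0.313) and Ext1 (0.318), and Zbtb16 had Gsn (0.285), Pkia (0.291) and Kcnq5 (0.303). Nr3c1, which varied little, had Sap30l (0.0865) and Rere (0.0899) among the nearest, and Nr3c2 had Aldh1a7 (0.1995), Pik3c2b (0.201) and Rab4a (0.203). Hsd11b2 had Pbld2 (0.361), Ppara (0.362) and Cth (0.423), Sgk2 had Pdzd3 (0.442), Liph (0.503) and Ifit1bl2 (0.504), and Hsd11b1 had an unnamed gene, Tbc1d4 (0.254) and Itgb7 (0.262). The libraries share tissue and genotype, so this likeness is a description of the 4 groups.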

How the data were processed

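Stranded libraries of poly-A RNA were sequenced as single reads, per the labels' protocols. Per the submitters' processing notes, the build was GRCm38 and the tools included Bowtie2 2.3.3.1 and cutadapt 1.15. The counting tool and its annotation were not given in the sources used here. Deposited counts per gene are raw and were used as they stand, while the deposited FPKM were not used here. GENCODE vM21 (GRCm38) matched 98.9% of the identifiers. The 9 genes, the gene lists and the markers were chosen with earlier results of these data known.

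Counts were tested with edgeR 4.0.16 in R 4.3.3 (filterByExpr with a minimum count of 10, TMM, robust quasi-likelihood F test, Benjamini-Hochberg over all genes tested). Each tissue was fitted on its 6 libraries, and the interaction and tissue contrasts on all 12. Alternatives used RLE factors, library size only, no filter, DESeq2 1.42.0, limma-voom (limma 3.58.1), all 12 libraries, a replicate block, and each library left out. Named genes are the 9 genes and Tnf, up to 4 called genes per list and tissue by smallest adjusted p (the most abundant gene where none was called), up to 2 per list for the interaction, and the 3 genes most alike each of the 9. Not every gene this rule names is reported here. In the synovium equal replicate numbers of TNFdARE and WT deviated together (r = 0.436, 0.266 and 0.165 over 10465 autosomal genes). The main synovial tests still left the replicate number out. The replicate block was run only as an alternative, with 4842 genes called in the synovium, against 3713. Counts of replicates of a group differed by a chi-square of 11.2 to 92.9 per gene, far above sampling noise. Library totals lay between 14267834 and 16224402 counts. The reads carry no molecular identifiers, so counting error understates the true error.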

Additional observations from a re-analysis of the deposited data

Results flagged for a closer look

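The interaction test over all 12 libraries called a difference in the TNFdARE effect between tissues for 3 of the 9 genes. Of all 16964 genes tested 5.28% were called upward and 6.80% downward. The call of Zbtb16 was the least firm, as it ended in 11 of the 12 fits that left out 1 library, and with limma-voom. The synovial minus the ileal log2 fold change was 1.38 for Sgk1, 1.56 for Fkbp5 and -1.54 for Zbtb16. Fkbp5 rose in the synovium (0.76) and had -0.83 in the ileum, where it did not pass the test. Zbtb16 fell in the synovium (-1.46) and had 0.06 in the ileum, and Sgk1 had -0.27 in the synovium and fell in the ileum (-1.67).

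Of the list genes called for the interaction, up to 2 per list were chosen by smallest adjusted p, and not every called gene is reported. Among them the difference was 1.59 for Angptl4, 1.46 for Kcnn4, 0.64 for Stip1, 0.53 for Fkbp2 and 0.49 for Fkbp4. All of these had the higher fold change in the synovium. The difference was -2.01 for Ddit4, -0.84 for Por, -0.63 for Foxo1 and -0.47 for Rictor, all with the lower fold change in the synovium. Outside this choice, Il1r2 (-3.17) and Wnk4 (-1.61) were also called, again with the lower fold change in the synovium. Fkbp2, an FK506-binding protein of the endoplasmic reticulum, and Rictor, a subunit of mTOR complex 2, passed no test within a tissue (0.16 in synovium and -0.40 in ileum for Fkbp2, -0.10 in synovium and 0.34 in ileum for Rictor). The calls of Rictor, Fkbp2, Fkbp4 and Stip1 each ended without some single libraries, 10, 7, 6 and 2 of the 12.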

How the results depend on the processing

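Of the 9 genes, 3 were called in the ileum. With DESeq2 or all 12 libraries in 1 model 6 were called, with 2715 or 2722 genes called in all, against 879. The genes added were Fkbp5, Nr3c2 and Hsd11b2. With the replicate block 5 were called, with Nr3c2 (-0.96, adjusted p = 0.0419) and Hsd11b2 (-1.06, adjusted p = 0.0377) added and 1128 genes called in all. Equal numbers in the ileum correlated at 0.253, 0.265 and 0.0651, and 5 of 6 libraries correlated best with their own number. In the synovium 5 of 6 did so too, and the main fits of both tissues left the replicate number out. With limma-voom 0 were called, with the epithelial marker level as covariate (added after seeing the data) 0, though Sgk1, Sgk2 and Tsc22d3 kept -1.31, -1.04 and -0.73, and leaving out 1 library gave 0 to 6. The ileal calls of all genes ran from 0 to 4633, against 879.

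In the synovium 4 were called, 3 with all 12 libraries (Nr3c2 lost, adjusted p = 0.0639), and 3 to 4 leaving out 1 library. With the muscle or adipocyte covariate 0 were called, with 292 or 2 genes called in all, against 3713. With the adipocyte covariate Nr3c2 was 0.00299 and Stip1 was -0.0662, both of opposite sign. The replicate block changed no member call in the synovium. For the interaction, Tsc22d3 passed with DESeq2 (-0.73, adjusted p = 0.0487) and with the replicate block within each tissue (-0.77, adjusted p = 0.0221), and Zbtb16 did not with limma-voom (adjusted p = 0.117). Between WT tissues, library size only moved the median of all genes to -0.17, and with it Nr3c1 lost its call (0.19, adjusted p = 0.146) and Hsd11b1 gained one (-0.88, adjusted p = 0.0435). The 7 calls between TNFdARE tissues held in all alternatives. The causes of these changes were not tested. Leaving out 1 library ended the call in 40 of 60 refits of Tnf and the named list genes in the ileum, and in 39 of 138 in the synovium. The 60 include the refits of Akt1, which was not called in the ileum and had no call to lose. Few libraries per group limited all tests, and the low counts of Sgk2 in the synovium and of Zbtb16 in the ileum limited theirs.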
